A study of Homo sapiens with 24 samples.

Results

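KAT8, also called MOF, is the acetyltransferase that places most acetyl groups on lysine 16 of histone H4, and it works inside a pair of multi-subunit assemblies, the MSL and the NSL complex. The 10 genes described here are KAT8, the MSL subunits MSL1, MSL2 and MSL3, and the NSL subunits KANSL1, KANSL2, KANSL3, MCRS1, PHF20 and WDR5. They were chosen by name from the 59385 gene symbols of the counts table. All 10 passed the filter on low counts in each line. They were followed across A549 and H1299, both non-small cell lung carcinoma lines, each stably transduced by lentivirus with FLAG-tagged SIRT6 as wild type (WT), as K3R or as K3Q, or with the FLAG-tagged empty vector (Ctr). Every group had 3 libraries, 24 in all, and every group was a transduced line that keeps its own SIRT6 gene. In the letters of the mutant names, R stands for arginine, which cannot be acetylated, and Q for glutamine, which resembles acetyl-lysine. The labels do not say whether a group came from 1 clone, and the lentiviral promoter is not named in the sources used here.

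In the MSL complex, MSL1 is the scaffold that holds KAT8, MSL2 is a RING-type ubiquitin ligase that binds the scaffold, and MSL3 carries a chromodomain that reads methylated histone tails. This complex was first described in Drosophila, where it raises transcription of the male X chromosome, and in mammals it acts on histone H4 lysine 16. In the NSL complex, KANSL1 is the scaffold that holds KAT8 and WDR5, PHF20 has Tudor and PHD domains that read histone methylation, and MCRS1, KANSL2 and KANSL3 are further core subunits. The NSL complex sits at promoters of broadly expressed genes. WDR5 is also a subunit of the MLL and SET1 histone methyltransferase complexes, and MCRS1 is also a subunit of the INO80 chromatin remodeller. SIRT6 is a deacetylase of the sirtuin family, and KAT8 is an acetyltransferase that has been linked to it.

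The libraries held 16434492 to 19412274 counted reads in A549 and 14943189 to 22856407 in H1299. Each group consisted of library 1-1 (biological replicate 1, batch 1), library 1-2 (biological replicate 1, batch 2) and library 2-2 (biological replicate 2, batch 2), so that libraries 1-1 and 1-2 are repeats of 1 biological replicate. SIRT6 averaged between 1673 and 12915 CPM (read counts scaled to a common library size) in the 6 SIRT6 groups, against 27.4 and 37.3 CPM in the Ctr groups of A549 and H1299, and the H1299 K3Q group stood highest. The line labels were checked on marker genes. CDKN2A was at most 1.37 CPM in A549 and 98.5 to 148 CPM in H1299, and CDH1 was 16.7 to 107 CPM in A549 and at most 0.598 CPM in H1299. The summed level of 9 markers of blood, endothelial and fibroblast cells was 12.6 to 25.1 CPM in A549 and 1.497 to 10.99 CPM in H1299, mostly from COL1A1 and CD14 in A549, and PTPRC, the leukocyte marker, was at 0 in 11 of 12 A549 and 8 of 12 H1299 libraries. In A549 the 2-2 libraries of WT, K3R and Ctr stood apart on the first principal component, at 51.3 to 54.0 against at most 1.60 in the other 9, and in H1299 the 2-2 libraries of WT and K3R did so, at 52.2 and 44.7 against at most 15.3. Libraries 1-2 and 2-2 of A549 K3Q differed far less from each other than any other pair of libraries of 1 group, with a chi-square of 2.49 per degree of freedom against 14.4 to 63.6 in the other pairs, although the labels place them in different biological replicates.

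The genes lie on 8 chromosomes of GRCh38. KAT8 is at chr16:31115754-31131393, MSL1 at chr17:40122298-40136916, MSL2 at chr3:136148922-136197241, MSL3 at chrX:11758159-11775772 and KANSL1 at chr17:46029916-46225389. KANSL2 and MCRS1 share chromosome 12, at chr12:48653401-48682238 and chr12:49556544-49568153. KANSL3 is at chr2:96593170-96642787, PHF20 at chr20:35771974-35950381 and WDR5 at chr9:134135365-134159968. The counting's strand setting is not given in the sources used here, so reads of antisense neighbours cannot be told apart from those of the member. The longest antisense exon overlaps were 408 bases between WDR5 and BX649632.1 and 304 bases between KANSL1 and CR936218.1. Neither of these antisense genes is in the counts table, so their level is not known. KANSL1 exons also overlap KANSL1-AS1 over 136 bases, at 7 to 32 counts a library for the antisense gene. MCRS1 overlaps KCNH3 over 14 bases, at 236 to 739 counts, and KANSL3 overlaps FER1L5 over 45 bases, at 0 to 9 counts. Reads shared with the related loci KANSL1L, MSL3P1 and WDR5B, or with partial copies of KANSL1, could have been split between them by the counting.

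The sequences before the RefSeq start of the 3 MSL subunits are shown because these subunits differed between the lines in opposite directions. Each is the 200 bases before the outermost RefSeq start of the gene in GRCh38.p14, none of them in an annotated exon, written 5′ to 3′ on the gene's strand, with every GC box (GGGCGG, searched on both strands) in capitals. The MSL1 window is chr17:40121771-40121970 on the plus strand, the MSL2 window chr3:136196336-136196535 on the minus strand and the MSL3 window chrX:11757959-11758158 on the plus strand. RefSeq and GENCODE 29, which gave the gene spans above, place these starts differently. The MSL3 window ends at the base before the GENCODE start and the MSL1 window ends 328 bases upstream of it, while the MSL2 window lies 706 to 905 bases downstream of the GENCODE start, inside the gene span and outside its exons.
MSL1: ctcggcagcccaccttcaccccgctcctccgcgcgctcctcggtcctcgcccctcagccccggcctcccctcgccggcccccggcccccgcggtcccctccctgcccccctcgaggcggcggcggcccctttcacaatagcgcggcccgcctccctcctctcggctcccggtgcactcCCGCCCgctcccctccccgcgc
MSL2: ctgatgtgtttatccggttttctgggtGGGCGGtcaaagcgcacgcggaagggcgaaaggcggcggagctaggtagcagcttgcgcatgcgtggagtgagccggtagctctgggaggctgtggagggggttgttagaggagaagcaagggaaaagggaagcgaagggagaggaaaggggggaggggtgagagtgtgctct
MSL3: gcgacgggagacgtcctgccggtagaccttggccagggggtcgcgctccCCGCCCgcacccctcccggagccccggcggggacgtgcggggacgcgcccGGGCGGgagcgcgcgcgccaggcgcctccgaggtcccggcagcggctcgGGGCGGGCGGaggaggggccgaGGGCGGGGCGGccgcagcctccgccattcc
The GC content was 80.5% for MSL1, 60.5% for MSL2 and 83% for MSL3, against a median of 59% over the 35116 windows of the table. MSL1 and MSL2 held 1 GC box each and MSL3 held 6, overlaps counted, and 40.1% of all windows held at least 1. None of the 3 held a CCAAT box (CCAAT, in 28% of all windows), an E box (CACGTG, 5.49%), an ETS site (CCGGAAG, 7.71%), a CRE (TGACGTCA, 1.57%) or a TATA box (TATAAA, 8.59%), each searched on both strands. Of the 9 members with an entry in the table, WDR5 was the only one with a GC content under the median, at 47.5%, and PHF20 was the only one with an E box.

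Per length of exon, WDR5 and MCRS1 gave the most abundant transcripts of the 10 and KANSL1 the least abundant in both lines. Levels between genes are given as CPM per kb of annotated exon, since counts alone favour long transcripts. In A549 the medians over 12 libraries ran from WDR5 at 37.4 and MCRS1 at 30.9 through MSL1 at 14.1, KANSL2 at 11.8, KAT8 at 9.98, KANSL3 at 7.95 and PHF20 at 6.74 to MSL2 at 3.81, MSL3 at 3.12 and KANSL1 at 2.65 CPM per kb. In H1299 they ran from MCRS1 at 52.4 and WDR5 at 41.5 through KANSL2 at 13.7, MSL1 at 9.18, KANSL3 at 8.35, KAT8 at 7.93, MSL2 at 7.09 and PHF20 at 6.96 to MSL3 at 2.36 and KANSL1 at 1.66 CPM per kb. Neighbours in these orders overlapped in their range over libraries, except for MCRS1 over MSL1, KANSL3 over PHF20 and PHF20 over MSL2 in A549, and for WDR5 over KANSL2, KANSL2 over MSL1 and PHF20 over MSL3 in H1299. With the longest annotated transcript as the length, WDR5 and MCRS1 again led in both lines, while the lowest place went to MSL2 in A549 (4.14 CPM per kb) and to MSL3 in H1299 (3.53 CPM per kb). The low place of KANSL1 on the exon scale therefore rests on the choice of length, since its annotated exons span 23829 bases and its longest transcript 9095 bases.

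**Figure D1:**
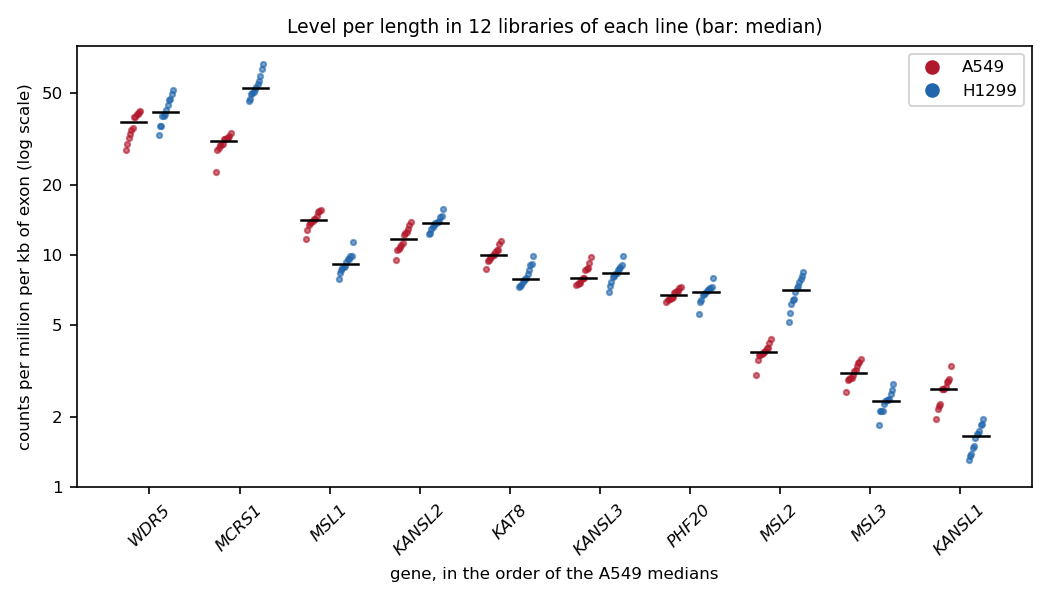
Level of each transcript in CPM per kb of annotated exon (log scale), with 12 points for A549 (left, red) and 12 for H1299 (right, blue) per gene and a bar at the median, in the order of the A549 medians. MSL2 stands at 3.81 in A549 and 7.09 in H1299, and MSL1 at 14.1 in A549 and 9.18 in H1299.

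The clearest differences among these genes lay between the lines. Taken as the mean over the 4 constructs, 8 of the 10 members differed between A549 and H1299 by edgeR's quasi-likelihood test with Benjamini-Hochberg adjustment over 18102 genes, 4 higher in A549 (KAT8, MSL1, MSL3 and KANSL1) and 4 lower (MSL2, MCRS1, KANSL2 and WDR5). Of all genes tested, 81.7% passed the same test, so a count of 8 of 10 is close to the background. The sizes were modest, with a median absolute log2 difference of 0.37 for the members against 0.79 for all genes, and a median log2 difference of -0.02 for both. In 4 members, MSL1, MSL2, KANSL1 and MCRS1, the 12 libraries of A549 did not overlap the 12 of H1299 in TMM-scaled CPM, as was so for 40.9% of all genes tested. In bulk libraries, less RNA per cell and fewer cells with the transcript cannot be told apart.

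KAT8 itself ranged from 37.8 to 49.9 CPM in A549 with a median of 43.3 CPM, against 31.7 to 42.9 CPM in H1299 with a median of 34.4 CPM. The H1299 libraries K3Q 1-1, K3Q 1-2 and K3R 1-1 reached into the A549 range. In TMM-scaled CPM, A549 was higher in 12 of 12 pairs of libraries matched by construct, replicate and batch. The log2 difference was 0.30 ± 0.05 (SE; edgeR adjusted p = 2.99e-06), a mean of 43.8 ± 3.3 CPM in A549 against 35.6 ± 3.6 CPM in H1299 (SD, n = 12 each). By construct it was 0.38 with WT, 0.28 with K3R, 0.12 with K3Q and 0.44 with Ctr, and all but the K3Q difference passed (adjusted p = 0.27 with K3Q).

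Within the MSL complex the scaffold and the ligase differed in opposite directions. MSL1 ranged from 87.2 to 116 CPM in A549 with a median of 104 CPM, against 58.1 to 84.5 CPM in H1299 with a median of 67.9 CPM. MSL2 ranged from 15.6 to 22.2 CPM in A549 with a median of 19.4 CPM, against 26.4 to 43.1 CPM in H1299 with a median of 36.1 CPM. For both genes the lines stood fully apart in TMM-scaled CPM, MSL1 higher in A549 in 12 of 12 matched pairs and MSL2 in 0 of 12. The log2 difference was 0.61 ± 0.05 for MSL1 (SE; edgeR adjusted p = 4.55e-10) and -0.86 ± 0.06 for MSL2 (adjusted p = 2.39e-11). MSL3, the chromodomain subunit, ranged from 25.1 to 34.8 CPM in A549 with a median of 30.5 CPM, against 18.2 to 27.1 CPM in H1299 with a median of 23.1 CPM. Its lines overlapped slightly, its log2 difference was 0.43 ± 0.06 (adjusted p = 1.39e-06), and A549 was higher in 12 of 12 matched pairs in TMM-scaled CPM.

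The proportions of the MSL transcripts differed as well. On the CPM per kb scale, the MSL1 level divided by the MSL2 level in the same library had a median of 3.80 in A549 (range 2.98 to 4.82) and 1.34 in H1299 (range 1.22 to 1.62). The MSL3 to MSL2 ratio was 0.806 in A549 (0.686 to 0.969) and 0.327 in H1299 (0.267 to 0.429). The lines did not overlap in either ratio. The MSL1 to KAT8 ratio lay closer, at 1.37 in A549 (1.22 to 1.64) and 1.14 in H1299 (0.884 to 1.49), and overlapped. These ratios are within a library and so do not depend on its scaling.

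Among the NSL subunits the scaffold KANSL1 lay farthest above H1299 in A549 and MCRS1 farthest below. KANSL1 ranged from 47.0 to 79.1 CPM in A549 with a median of 63.2 CPM, against 31.2 to 46.8 CPM in H1299 with a median of 39.5 CPM. MCRS1 ranged from 74.6 to 110 CPM in A549 with a median of 101 CPM, against 151 to 218 CPM in H1299 with a median of 171 CPM. Neither gene overlapped between the lines in TMM-scaled CPM, although the highest H1299 library for KANSL1 lay just under the lowest A549 library. The log2 difference was 0.68 ± 0.05 for KANSL1 (SE; edgeR adjusted p = 3.17e-11) and -0.83 ± 0.06 for MCRS1 (adjusted p = 4.17e-11), with A549 higher in 12 of 12 and in 0 of 12 matched pairs. The KANSL1 to MCRS1 ratio of CPM per kb had a median of 0.0835 in A549 and 0.0294 in H1299.

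KANSL2 and WDR5 passed with smaller falls that did not hold within batch 2. KANSL2 averaged 39.9 ± 4.4 CPM in A549 and 46.5 ± 3.4 CPM in H1299 (SD, n = 12 each), a log2 difference of -0.23 ± 0.06 (SE; edgeR adjusted p = 0.00299), and WDR5 averaged 132 ± 17 CPM in A549 and 153 ± 21 CPM in H1299, a log2 difference of -0.21 ± 0.07 (adjusted p = 0.0113). In the 16 libraries of batch 2 alone, the log2 difference was -0.08 for KANSL2 (adjusted p = 0.35) and -0.05 for WDR5 (adjusted p = 0.61). Over all the alternatives tried the adjusted p ran from 0.000254 to 0.35 for KANSL2 and from 0.000208 to 0.61 for WDR5. A549 was higher in 2 of 12 matched pairs for KANSL2 and in 3 of 12 for WDR5. PHF20, the histone methylation reader, averaged 56.7 ± 2.9 CPM in A549 and 57.6 ± 5.0 CPM in H1299 (SD, n = 12 each), and KANSL3 averaged 74.4 ± 7.0 CPM in A549 and 75.2 ± 7.3 CPM in H1299. The log2 difference was -0.02 for PHF20 (95% interval -0.13 to 0.08) and -0.01 for KANSL3 (95% interval -0.12 to 0.10), and neither passed. TMM scaling moved A549 against H1299 by 0.15 on the log2 scale relative to plain CPM, for every gene alike. On plain CPM all 10 signs stayed, with KAT8 at 0.15, MSL3 at 0.28, PHF20 at -0.17 and KANSL3 at -0.17. A549 was no longer higher in every matched pair for KAT8 and MSL3. In K3Q library 2-2, KAT8 had 37.9 CPM in A549 and 39.2 CPM in H1299. In Ctr library 1-1, MSL3 had 27.5 CPM in A549 and 29.1 CPM in H1299. The separation of MSL1 and KANSL1 did not hold on that scale, where the lowest A549 library had 82.9 CPM for MSL1 and 44.8 CPM for KANSL1, against 90.6 and 52.1 CPM in the highest H1299 library. MSL2 and MCRS1 did not overlap between the lines on plain CPM either.

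**Figure D2:**
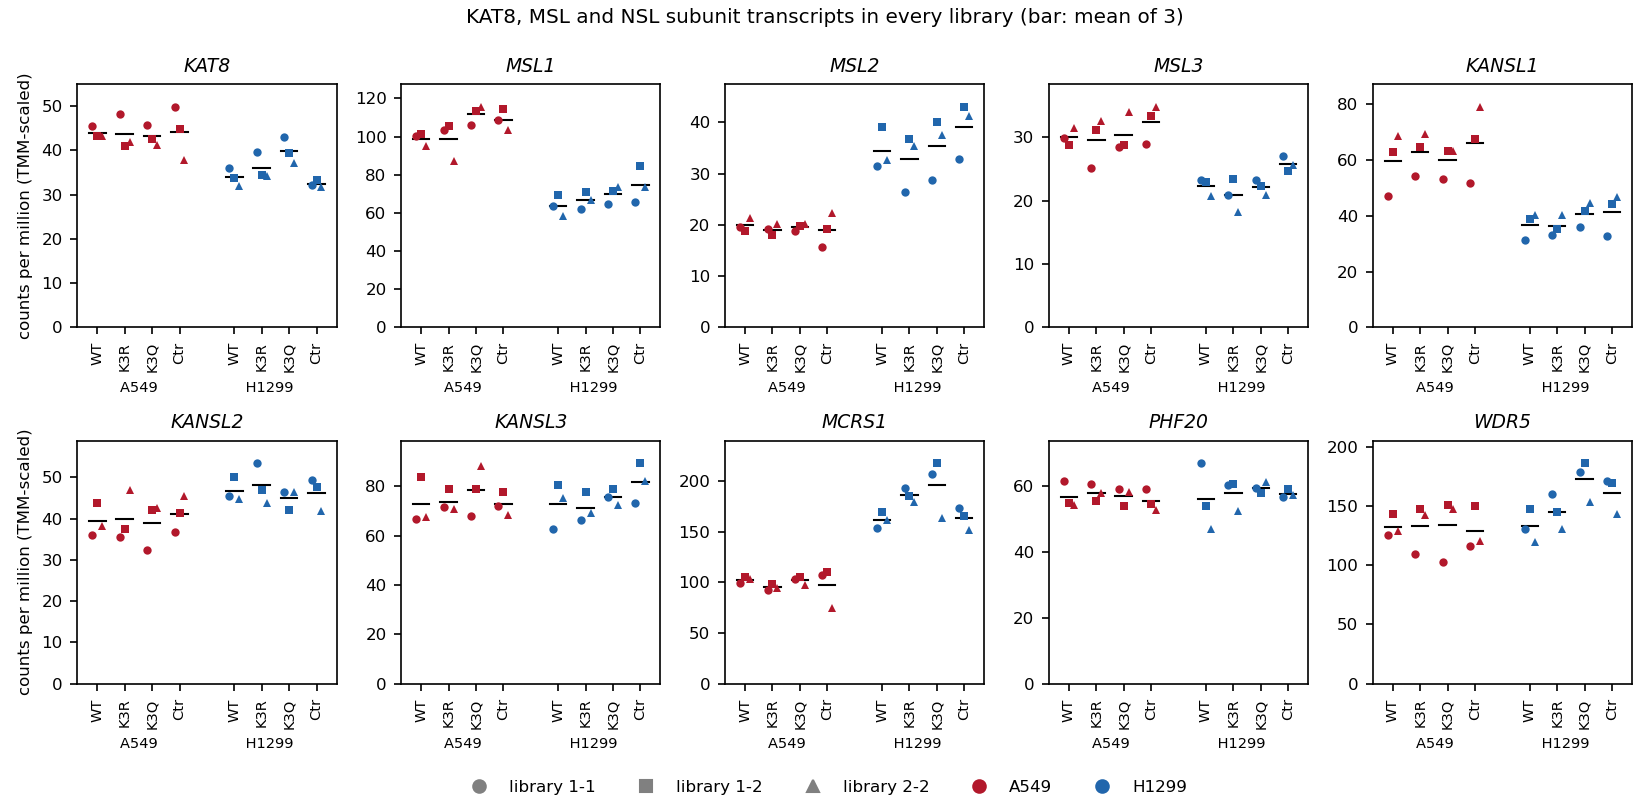
Level of the 10 transcripts in TMM-scaled CPM in every library, with the A549 groups left of the H1299 groups in each panel, a bar at the mean of 3 libraries and marker shapes for libraries 1-1, 1-2 and 2-2. MSL1 and KANSL1 lie higher, and MSL2 and MCRS1 lower, in all 12 A549 libraries than in all 12 H1299 libraries.

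The line difference was present within each construct. With each of WT, K3R, K3Q and Ctr, 6 of 10 members passed, against 63%, 63.5%, 64.1% and 63.8% of all genes. MSL1, MSL2, MSL3, KANSL1 and MCRS1 passed with all 4. The range over constructs was 0.55 to 0.68 for MSL1, -1.04 to -0.77 for MSL2, 0.33 to 0.50 for MSL3, 0.56 to 0.79 for KANSL1 and -0.96 to -0.66 for MCRS1, all on the log2 scale. The sixth was KAT8 with WT, K3R and Ctr, and WDR5 with K3Q (-0.38, adjusted p = 0.028). The MSL3 difference with Ctr lost its pass when any of 4 libraries was left out (A549 Ctr 1-2 or 2-2, H1299 Ctr 1-2 or 2-2), at adjusted p = 0.056 to 0.085, and under 4 other settings (0.077 to 0.11). The KAT8 difference lost its pass with no low-count filter for WT (0.40, adjusted p = 0.052) and K3R (0.30, adjusted p = 0.18), and for K3R also in batch 2 alone (0.29, adjusted p = 0.081) and with biological replicate 1 summed (0.26, adjusted p = 0.16). The WDR5 difference with Ctr was -0.33 (adjusted p = 0.054) and passed with the replicate block (-0.33, adjusted p = 0.0272). The WDR5 difference with K3Q lost its pass in batch 2 alone (-0.14, adjusted p = 0.48) and without any of 8 single libraries, among them A549 K3Q 1-1 (-0.22, adjusted p = 0.22), H1299 K3Q 1-1 (-0.27, adjusted p = 0.18) and H1299 K3Q 1-2 (-0.31, adjusted p = 0.12). It also lost its pass with biological replicate 1 summed (-0.31, edgeR adjusted p = 0.11) and with no low-count filter (-0.33, adjusted p = 0.067).

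**Figure D3:**
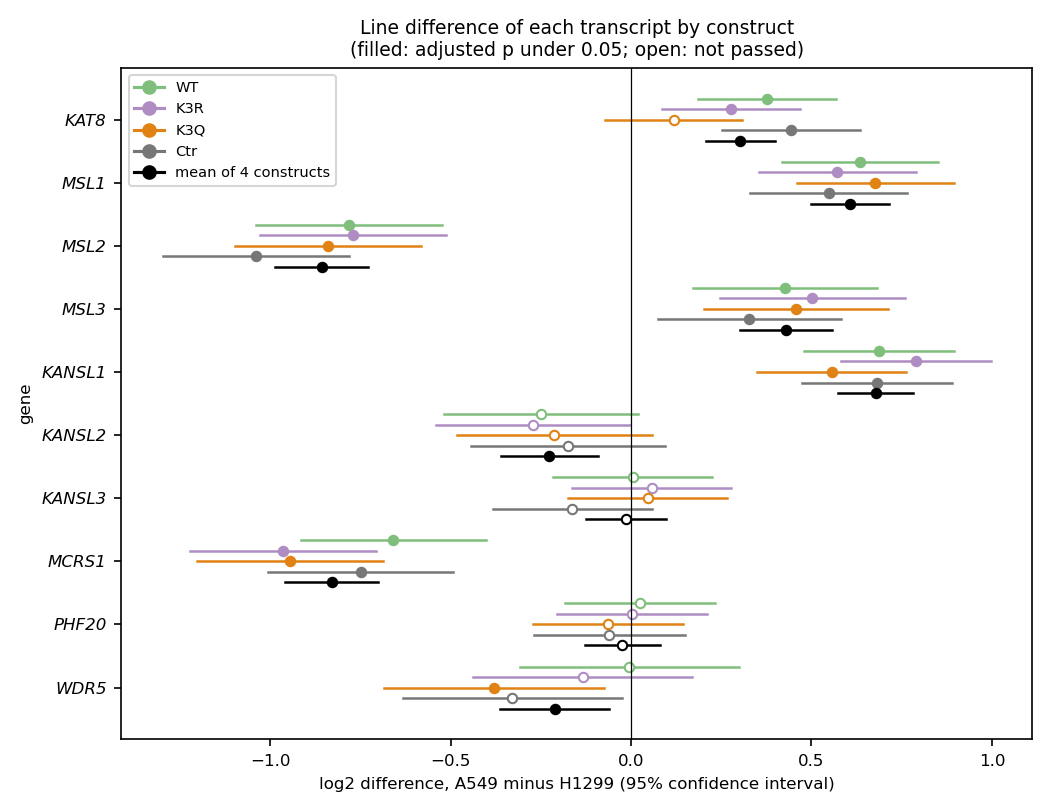
Log2 difference of A549 minus H1299 for each member with its 95% confidence interval, for each construct and for the mean of the 4 constructs, with filled points for an adjusted p under 0.05. MSL2 and MCRS1 lie between -1.04 and -0.66 and MSL1 and KANSL1 between 0.55 and 0.79 with each construct, while PHF20 and KANSL3 lie around 0.

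The position of the genes was set beside these differences. Among the tested genes that start within 1 Mb of MSL1, 31 of 34 passed higher in A549 and 1 passed lower, with a median log2 difference of 1.01, against 0.61 for MSL1 itself. Of all genes tested, 40.4% passed higher and 41.3% lower. Within 1 Mb of MSL2, 0 of 7 passed higher in A549 and 6 passed lower, with a median of -0.57. Within 2 Mb, 63 of 70 neighbours of MSL1 passed higher and 3 lower, and of the 16 neighbours of MSL2 0 passed higher and 13 lower. Around KANSL1, which had a similar difference to MSL1, 9 of 22 neighbours passed higher and 5 lower, with a median of 0.11. Around MCRS1, 13 of 41 passed higher and 21 lower, with a median of -0.20 against -0.83 for MCRS1 itself, and around KAT8 21 of 52 passed in each direction, so that the counts around KANSL1 and KAT8 lay near or under the shares of all genes. The windows were chosen after the line differences were known, neighbours are not independent of each other, and DNA copy number was not measured here.

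**Figure D4:**
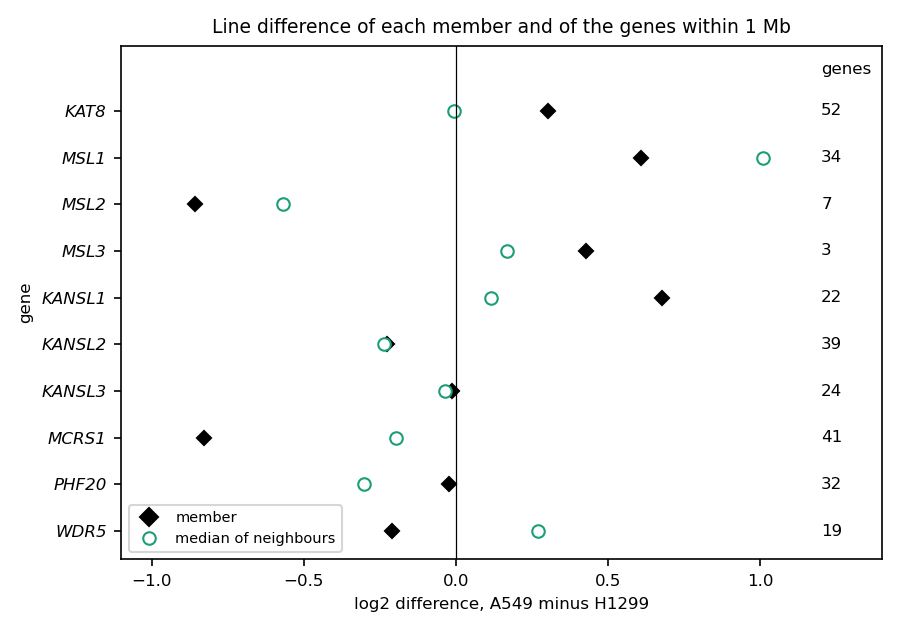
Log2 difference of A549 minus H1299 for each member (diamond) and the median over the tested genes that start within 1 Mb of it (open circle), with the number of such genes at the right. The neighbours' median is 1.01 at MSL1 and -0.57 at MSL2, and lies between -0.30 and 0.27 at the other 8 members.

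In the main test, which has batch as a term and leaves out any pairing of same-numbered libraries, no member passed in any comparison of SIRT6 constructs within a line. With library class (1-1, 1-2 or 2-2) as a replicate block in place of batch, WDR5 passed in H1299 for WT against Ctr and K3Q against WT, as given below. In A549, 0 of 10 members passed in the 6 comparisons, in which 0 to 0.118% of all genes passed, namely 0.105% with WT, 0.118% with K3R and 0.0248% with K3Q when Ctr was the comparator, 0 for K3R set against WT, and 0.0062% for K3Q set against either WT or K3R. At an unadjusted p under 0.05 the count was also 0 of 10 in each of these 6, and 0 by DESeq2. The A549 log2 differences lay between -0.15 for KANSL1 (WT against Ctr) and 0.17 for MSL1 (K3Q against K3R), and the outermost bounds of the members' 95% intervals were -0.39 and 0.38. KAT8 averaged 44.0 ± 1.3 CPM with WT, 43.8 ± 3.9 CPM with K3R and 43.2 ± 2.3 CPM with K3Q, against 44.2 ± 6.1 CPM with Ctr (SD, n = 3 each). Its log2 difference from Ctr was 0.00 with WT (95% interval -0.19 to 0.20) and -0.03 with K3Q.

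In H1299, 0 of 10 members passed as well, in comparisons in which more of all genes did: 4.05% with WT, 3.25% with K3R and 0.0615% with K3Q when Ctr was the comparator, 0 for K3R set against WT, 3.46% for K3Q set against WT and 0.449% for K3Q set against K3R. At an unadjusted p under 0.05 there were 2, 2, 2, 0, 3 and 1 of 10 members in that order, against 17.5%, 17.6%, 9.72%, 2.99%, 20.3% and 11.9% of all genes, so these counts are near the background. DESeq2 passed 1 member for K3Q against WT, which was WDR5, and 0 in the other 5.

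WDR5 was the member nearest to passing. In H1299 it had 179, 187 and 153 CPM in the K3Q libraries 1-1, 1-2 and 2-2, against 131, 148 and 120 CPM in the WT libraries in that order. The K3Q values lay above all WT values, as was so for 19.6% of all genes in either direction. The log2 difference was 0.37 ± 0.11 (SE; 95% interval 0.13 to 0.61; edgeR adjusted p = 0.086). With library class as a replicate block, the log2 difference was the same 0.37 and passed (adjusted p = 0.00811), and it passed by DESeq2 (adjusted p = 0.0375) and in libraries 1-1 and 1-2 alone (0.39, adjusted p = 0.00297), which are 1 biological replicate. With the libraries of biological replicate 1 summed, so that each biological replicate counted once, it was 0.37 and did not pass (adjusted p = 0.51). The summed setting, fitted with no batch or block term, passed 0.14% of all genes for K3Q against WT. The main test passed 3.46% and the block 12%. The adjusted p of WDR5 over all alternatives ran from 0.00297 to 0.57. WT in turn lay below Ctr, which had 171, 169 and 144 CPM, by -0.28 on the log2 scale (adjusted p = 0.22), and passed with the replicate block (adjusted p = 0.0364) and in libraries 1-1 and 1-2 alone (-0.29, adjusted p = 0.0385), but not with biological replicate 1 summed (-0.27, adjusted p = 0.58), in a range of 0.0364 to 0.64 over alternatives. SIRT6 itself was not matched between these groups, at 12915 ± 2066 CPM in K3Q against 3742 ± 2200 CPM in WT (SD, n = 3 each), and the part of this gap in the WDR5 values was not tested. In A549 the WDR5 log2 difference of K3Q against WT was -0.02.

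KAT8 in H1299 had 42.9, 39.4 and 37.2 CPM with K3Q, against 32.1, 33.3 and 31.7 CPM with Ctr. The groups did not overlap, as was so for 11.8% of all genes in this comparison, and KAT8 was higher in 3 of 3 matched pairs. Its log2 difference was 0.29 ± 0.10 (SE; 95% interval 0.09 to 0.50; unadjusted p = 0.00842 and edgeR adjusted p = 0.35), so it did not pass over all genes. In libraries 1-1 and 1-2 alone it passed (0.33, adjusted p = 0.0351), and over all alternatives the adjusted p ran from 0.0351 to 1. With WT, KAT8 had 36.0, 33.8 and 31.9 CPM, and with K3R 39.7, 34.4 and 34.3 CPM, with log2 differences from Ctr of 0.07 and 0.15. The difference of the K3Q effect on KAT8 between the lines, A549 minus H1299, was -0.33 ± 0.13 (unadjusted p = 0.0206, edgeR adjusted p = 0.89), and did not pass.

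MCRS1 in H1299 had 193, 185 and 179 CPM with K3R and 207, 218 and 164 CPM with K3Q, against 153, 169 and 161 CPM with WT and 173, 165 and 151 CPM with Ctr. All 3 K3R libraries stood above every WT and Ctr library, as was so in either direction for 8.38% of all genes against WT and 19.6% against Ctr. The log2 difference of K3R was 0.19 from WT (edgeR adjusted p = 0.999) and 0.18 from Ctr (adjusted p = 0.42), and neither passed. Libraries 1-1 and 1-2 of K3Q stood above every WT and Ctr library, and library 2-2 of K3Q lay within their range. The log2 difference of K3Q was 0.27 against WT (edgeR adjusted p = 0.18) and 0.26 against Ctr (adjusted p = 0.46). Without K3Q library 2-2 the K3Q difference from WT was 0.39 and passed (adjusted p = 0.0379), and in libraries 1-1 and 1-2 alone the differences were 0.40 from WT (adjusted p = 0.00181) and 0.33 from Ctr (adjusted p = 0.0141). Over all alternatives the adjusted p of K3Q ran from 0.00181 to 0.76 against WT and from 0.0141 to 1 against Ctr.

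Most members had a negative log2 difference from Ctr in H1299, 8 of 10 with WT, 7 with K3R and 6 with K3Q, without passing. The members' median log2 difference was -0.16, -0.16 and -0.03, against -0.01 over all genes in each of these comparisons. These comparisons share the Ctr libraries. The difference was negative with all 3 constructs for MSL1, MSL2, MSL3, KANSL1 and KANSL3. For KANSL1 with K3Q it was slight, at 40.7 ± 4.4 CPM against 41.2 ± 7.6 CPM with Ctr (SD, n = 3 each). Over the alternatives that KANSL1 log2 difference ran from -0.09 to 0.04. MSL3 had 20.9, 23.4 and 18.2 CPM with K3R, against 27.1, 24.6 and 25.6 CPM with Ctr, a log2 difference of -0.31 ± 0.11 (SE; 95% interval -0.56 to -0.06; edgeR adjusted p = 0.17) with no overlap of the groups, as in 19.6% of all genes. Its differences were -0.20 with WT and -0.22 with K3Q, and neither group overlapped Ctr, as in 18.9% and 11.8% of all genes. MSL2 had 26.4, 36.8 and 35.4 CPM with K3R, against 32.9, 43.1 and 41.2 CPM with Ctr, a log2 difference of -0.26 (adjusted p = 0.21). MSL1 differed from Ctr by -0.22 with WT, -0.17 with K3R and -0.10 with K3Q, and KANSL3 by -0.17, -0.20 and -0.11. In A549 the MSL subunits gave -0.14 to 0.08 in all 9 of these comparisons.

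**Figure D5:**
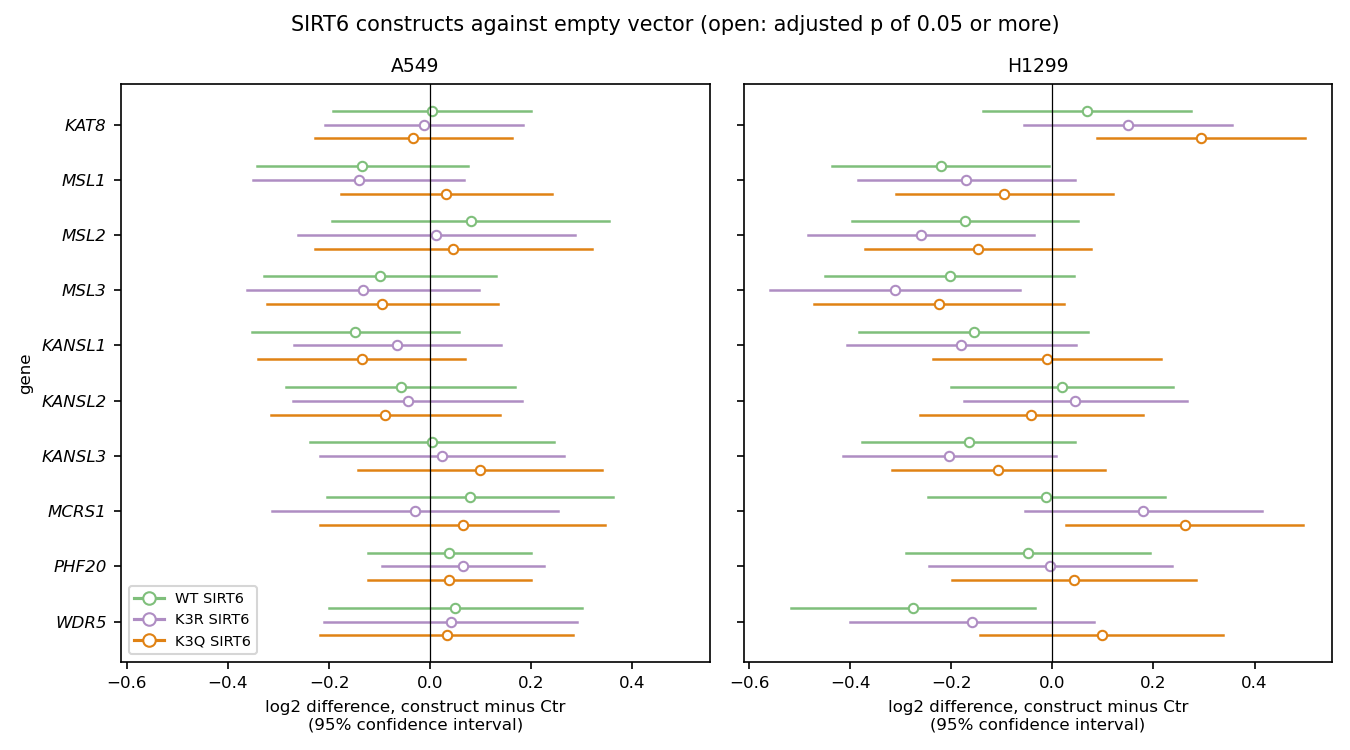
Log2 difference of WT, K3R and K3Q SIRT6 from empty vector for each member with its 95% confidence interval, A549 left and H1299 right. Points are open because no adjusted p of the main test was under 0.05. The A549 points lie between -0.15 and 0.10 and the H1299 points between -0.31 and 0.29.

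The interaction tests, which ask whether a construct's effect differs between the lines, passed 0 of 10 members for WT, K3R and K3Q, where 0.365%, 0.238% and 0.011% of all genes passed. At an unadjusted p under 0.05 there were 0, 0 and 1 members, against 7.85%, 7.14% and 5.09% of all genes. The 1 was KAT8 with K3Q, and DESeq2 passed 0 as well. The 95% intervals of the members reached from -0.60 to 0.75 on the log2 scale.

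Batch and biological replicate moved some members by as much as the constructs did. In A549, libraries 1-2 stood above libraries 1-1 for WDR5, with 143 to 151 CPM against 103 to 126 CPM over the 4 constructs, a log2 difference of 0.39 ± 0.09 (SE; edgeR adjusted p = 0.00732), and for KANSL1 by 0.34 ± 0.08 (adjusted p = 0.00775). These were 2 of 10 members, against 23.4% of all genes. In H1299 the member that passed was MSL2, with 36.8 to 43.1 CPM in libraries 1-2 against 26.4 to 32.9 CPM in libraries 1-1, a log2 difference of 0.41 ± 0.08 (adjusted p = 0.00818; 8.78% of all genes passed). Without the K3R libraries the A549 pair and the H1299 MSL2 difference no longer passed (WDR5 0.38, adjusted p = 0.07; KANSL1 0.36, adjusted p = 0.054; MSL2 0.39, adjusted p = 0.085), and KANSL1 did not pass without WT either (0.31, adjusted p = 0.065). Between the biological replicates within batch 2, libraries 2-2 against 1-2, 0 of 10 members passed in A549 (14.3% of all genes) and 1 in H1299 (16.3% of all genes). The A549 count was 0 at an unadjusted p under 0.05, against 34.0% of all genes, and 0 by DESeq2. The A549 contrast includes the K3Q pair of libraries that hardly differed from each other. Without K3Q, 38.2% of all genes passed, and so did KANSL3 (-0.23, edgeR adjusted p = 0.022), while without Ctr, WT or K3R no gene passed. The H1299 member was WDR5, with 120 to 153 CPM in libraries 2-2 against 145 to 187 CPM in libraries 1-2, a log2 difference of -0.22 ± 0.07 (adjusted p = 0.0356), which did not pass when the libraries of any 1 construct were left out (adjusted p = 0.077 to 0.11). No member's shift of 2-2 against 1-2 differed between the lines by the interaction test (0 of 10, against 3.86% of all genes). In that test 2 of 10 members, MSL2 and MSL3, had an unadjusted edgeR p under 0.05. The same was so for 19.6% of all genes, so this count is near the background.

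The members varied less within groups than most genes in the median over the 8 groups, but not in every group. They had at least 272 counts in every library, and the comparison with all tested genes was not matched for level. The median SD of log2 CPM among 3 libraries was 0.06 for MCRS1, 0.08 for PHF20, 0.09 for KAT8, 0.10 for MSL1 and 0.11 for MSL3, up to 0.19 for MSL2 and KANSL1, against 0.26 for the median gene. The highest SD in any 1 group ran from 0.18 for MSL1 to 0.31 for MCRS1, WDR5 and KANSL1. The A549 Ctr library 2-2, one of the 3 A549 libraries that stood apart, held the highest or lowest A549 value for 6 of the 10 members. It was lowest for KAT8 (37.8 CPM), MCRS1 (74.6 CPM) and PHF20 (52.6 CPM), and highest for MSL2 (22.2 CPM), MSL3 (34.8 CPM) and KANSL1 (79.1 CPM). No other A549 library held more than 3 such extremes.

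Other genes of the same machinery passed between the lines about as often as all genes did. None passed in the main test of any construct comparison, in which at most 4.05% of all genes passed. Lists of further NSL subunits, MYST and other acetyltransferases, deacetylases of histone H4 lysine 16, and COMPASS, MLL and INO80 subunits held 44 genes, and 0 of 44 passed in each of the 12 construct comparisons and 3 interactions. The lowest adjusted p by edgeR was 0.057, for H1299 K3Q against WT. Between the lines, as the mean of the 4 constructs, 15 of 44 passed higher in A549 and 21 lower, against 40.4% and 41.3% of all genes. Of the other NSL subunits, HCFC1, a promoter-bound adaptor, averaged 260 ± 69 CPM in A549 and 303 ± 45 CPM in H1299 (log2 difference -0.24, adjusted p = 0.0226), and OGT, the O-GlcNAc transferase, and PHF20L1, a PHF20 paralog, gave -0.32 (adjusted p = 0.0485) and 0.25 (adjusted p = 0.0093). All 3 passed, as did 81.7% of all genes, with a median of -0.24 against -0.02 over all genes.

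The counts in the short lists that follow stand against 40.4% of all genes passing higher in A549 and 41.3% lower. Among the acetyltransferases of the MYST family, to which KAT8 belongs, 3 of 4 passed higher and 1 lower in A549, with a median log2 difference of 0.26. KAT6A had the largest, at 78.0 ± 5.6 CPM in A549 against 38.0 ± 4.8 CPM in H1299 (SD, n = 12 each; log2 difference 1.04 ± 0.05 SE; edgeR adjusted p = 8.54e-14), and KAT7 was the one lower (-0.18, adjusted p = 0.0164). Among the other acetyltransferases 4 of 6 passed higher and 1 lower, with EP300, a histone H3 acetyltransferase and coactivator, at 98.0 ± 9.0 CPM against 38.4 ± 3.2 CPM. Of the 4 deacetylases that act on histone H4 lysine 16, HDAC1 (-0.54), HDAC2 (-1.33) and SIRT2 (-1.23) passed lower in A549 and SIRT1 (0.32) passed higher, a median log2 difference of -0.89. Of the 13 COMPASS and MLL genes other than WDR5, 3 passed higher and 5 lower, with the methyltransferases KMT2A at -1.37 and KMT2B at -0.95 and the core subunit RBBP5 at 0.83. Of the 14 INO80 genes other than MCRS1, 3 passed higher and 9 lower, with the DNA-binding subunit YY1 at -0.77 and the ATPase RUVBL2 at 0.39.

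Among the genes whose profile over the 24 libraries lay near that of KAT8 were PEBP1 and ATP5PD. Likeness was measured as the root mean square difference of log2 CPM after each gene's own mean was taken away. It was 0.11 for both, among the 16884 genes whose SD over the 24 libraries was at least that of KAT8. PEBP1 averaged 253 CPM in A549 and 192 CPM in H1299. Of the partner subunits, placed among 18101 genes without that limit on SD, PHF20 came nearest to KAT8, at 0.20 and place 614. It was followed by MSL3 at 0.23 and place 1258 and MSL1 at 0.23 and place 1367. The SD over the 24 libraries was 0.20 for KAT8 and 0.10 for PHF20. A gene with no change at all would also lie near KAT8 by this measure, so these places do not rank shared changes. MSL2 was the farthest, at 0.63 and place 9691. The measure is a description over libraries that share lines, batches and constructs.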

How the data were processed

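The 24 libraries are RNA-seq of 2 cell lines with 4 constructs each, 3 libraries a group. Per the labels' protocols, RNAiso Plus was used for extraction and a SMARTER mRNA-Seq kit for library construction. The submitters deposited raw read counts for 59385 gene symbols. Per the submitters' processing notes, the tools were cutadapt, FastQC, featureCounts and STAR and the build was GRCh38, without versions.

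Each line was fitted with edgeR 4.0.16 (R 4.3.3) on its 12 libraries, with filterByExpr, TMM scaling, and construct and batch as terms, over 16120 genes in A549 and 16262 in H1299. Line and interaction contrasts used all 24 libraries and 18102 genes. A gene passed at a Benjamini-Hochberg adjusted p under 0.05, and standard errors are the absolute log2 difference over the square root of the quasi-likelihood F. Library shifts came from a fit of construct and library class. CPM are TMM-scaled, and lengths are GENCODE 29 exons. Promoter sequences are from RefSeq (GRCh38.p14), which matched 9 of 10 members, all but KAT8. The fits were also run on simulated counts, drawn as independent libraries without a batch shift. Such counts hold no shared biological replicate, so they cannot show how that sharing affects the calls.

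The 10 members and the other lists were chosen with earlier results of these data known. All members are named, and from the other lists only genes that passed between the lines, at most 4 a direction. Same-numbered libraries deviated together across constructs, with r of 0.135 to 0.553 in H1299 and 0.275 to 0.746 in A549. The exception was A549 K3Q library 2-2, at 0.0566 to 0.118. Batch was not taken off first, so these r cannot separate a pairing of the samples from a batch shift common to the constructs. Alternatives were no batch term, a replicate block, RLE scaling, no filter, DESeq2 1.42.0, all 24 libraries in 1 fit, biological replicate 1 summed, batch 2 alone, libraries 1-1 and 1-2 alone, the A549 K3Q pair summed and each library or construct left out. Libraries 1-1 and 1-2 share a biological replicate, so p-values rest partly on technical spread. Values of a few genes outside the members are not reported here.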

Additional observations from a re-analysis of the deposited data

How the results depend on the processing

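Across the alternatives tried, 5549 values for a single member in a single comparison kept their side of the threshold, 25 came to pass, 36 no longer passed and 0 reversed. Between the lines as the mean of the 4 constructs, MSL1, MSL2, MSL3, KANSL1, MCRS1 and KAT8 passed under all 34 alternatives, while KANSL2 and WDR5 did not in batch 2 alone and WDR5 did not with biological replicate 1 summed (-0.17, adjusted p = 0.0577). The number of members passing moved in the following cases, from 0 in the main test of each H1299 construct comparison. With the replicate block it was 1 for H1299 WT against Ctr and 1 for H1299 K3Q against WT, WDR5 both times, and the block changed no other member call between constructs. Without the block it was 0, as it was with biological replicate 1 summed. In libraries 1-1 and 1-2 alone it was 1 for WT against Ctr, 2 for K3Q against Ctr (KAT8 and MCRS1) and 2 for K3Q against WT (WDR5 and MCRS1), in a setting that passed 8.96%, 12.2% and 24.2% of all genes, and with DESeq2 1 for K3Q against WT. Leaving out each library in turn gave 0 to 1 for K3Q against WT, the 1 being MCRS1 without K3Q library 2-2. For A549 libraries 2-2 against 1-2 it was 1 without K3Q (KANSL3, -0.23, adjusted p = 0.022), where 38.2% of all genes passed. For A549 libraries 1-2 against 1-1 it was 1 without WT and 0 without K3R, from 2. For H1299 libraries 2-2 against 1-2 it was 0 with no low-count filter, in batch 2 alone, and without Ctr, WT, K3R or K3Q, from 1. For H1299 libraries 1-2 against 1-1 it was 3 with DESeq2, 0 without K3R and 2 without K3Q, from 1. The contrast of 1-2 against 1-1, the block within each line and the windows of neighbouring genes were chosen after seeing the data. The block within each line passed WDR5 with Ctr (-0.33, adjusted p = 0.00303) and KANSL2 with WT and K3R (adjusted p = 0.0318 and 0.0206). The cause of these moves was not tested.

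Counts over all genes depended more on the setting. For H1299 K3Q against WT they ran from 8 (batch 2 alone) to 4033 (libraries 1-1 and 1-2 alone), with 563 in the main test and 1946 with the replicate block. For H1299 WT against Ctr the main count was 659 and the block gave 1585, for K3R against Ctr 528 and 1392, and for A549 WT, K3R and K3Q against Ctr 17, 19 and 4 in the main test and 105, 88 and 144 with the block. With 3 libraries a group, the A549 intervals left room for member changes of up to 0.39 on the log2 scale.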

Other observations

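Of all member pairs, KANSL2 and WDR5 had the smallest root mean square log2 difference over the 24 libraries. It was 0.17 after each gene's mean was taken away, and KANSL3 and PHF20 followed at 0.18. The measure is also small for genes that each vary little, so it does not show shared changes. The SD of log2 CPM over the 24 libraries was 0.13 for KANSL3 and 0.10 for PHF20. HCFC1, the NSL adaptor, differed between the batches. It averaged 337 ± 18 CPM in A549 libraries 1-2 against 193 ± 13 CPM in libraries 1-1 (SD, n = 4 each; log2 difference 0.81 ± 0.11 SE; edgeR adjusted p = 0.000502), and 353 ± 16 CPM in H1299 libraries 1-2 against 265 ± 22 CPM in libraries 1-1 (0.41, adjusted p = 0.00509). OGT, which modifies HCFC1, was higher in libraries 2-2 than in 1-2, by 0.50 in A549 (edgeR adjusted p = 0.0355) and 0.68 in H1299 (adjusted p = 0.0151). HCFC1 was lower there, by -0.46 in A549 (adjusted p = 0.0309) and -0.26 in H1299 (adjusted p = 0.0254). Of all genes, 14.3% passed this contrast in A549 and 16.3% in H1299. In A549 no gene passed it without the Ctr, WT or K3R libraries, so the A549 differences of OGT and HCFC1 did not hold there. HCFC1 and OGT were picked after their values were seen.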
